A study of Homo sapiens with 6 samples.

Results

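The miRNAs described here are the late-numbered entries of miRBase, the public catalogue of miRNA sequences, that were counted in Müller glial cells or in the extracellular vesicles (EV) that these cells secreted. A mature miRNA was included when its number was 3000 or more and its counts summed to at least 20 over the 6 libraries. Of the 2576 mature miRNAs in the tables, 1440 were numbered 3000 or more. Of these, 10 rows under 9 numbers were set aside by the rule. Among the remaining 1430, 914 had no count in any library, 414 had 1 to 19 counts and the rest reached the limit, 98 of them with counts in whole cells and 4 with counts in EV alone. Members were thus selected on the total count, which is weighted towards the deepest libraries, and a total of 20 or more is not a finding.

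miRBase gives numbers in order of registration. Low numbers mostly belong to abundant, conserved miRNAs that were cloned early, and late numbers to species found by deep sequencing, many of them scarce, processed from introns or known only in primates. A mature miRNA is cut from one arm (5p or 3p) of a hairpin, and bases 2 to 8 from its 5′ end, the seed, lead its pairing with messenger RNA. EV are membrane-bound particles that carry RNA out of the cell, and miRNAs are among the RNAs found in them.

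All samples came from MIO-M1, a spontaneously immortalised human Müller glial line that was not genetically modified. Whole cell RNA was taken at passages 22, 24 and 26 (replicates 1 to 3) and RNA of secreted EV at passages 23, 25 and 27 (replicates 1 to 3). Cultures were grown with foetal calf serum and were moved to serum-free medium (per the labels) or vesicle-depleted medium (per the methods) before EV were collected. The cells and EV also differed in the RNA extraction kit, so fraction, kit and passage parity cannot be told apart, and p-values measure only the spread between samples of 1 line.

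Library totals were 396025 to 3990900 counts (whole cell) and 1225541 to 3134561 counts (EV). A count of 0 allows up to 3 counts, or 0.752 to 7.58 CPM (counts per 1e6 counts of the library), for counting error only. The 8 Müller glial markers were counted in both fractions, with a summed level of 356800 to 390700 CPM in whole cells and 303100 to 356500 CPM in EV. The 7 blood and serum markers summed to 172 to 1174 CPM in whole cells, with 5 of 7 counted, and to 1718 to 2341 CPM in EV, with 7 of 7 counted. Of these, miR-451a and miR-144-3p had 0 counts in every whole cell library. The neuronal miR-124-3p had 0 counts in every library. The 3 muscle miRNAs listed summed to 22.7 to 35.1 CPM in whole cells and 91.4 to 349 CPM in EV, and 3 photoreceptor and sensory miRNAs to 227 to 333 CPM and 1151 to 1218 CPM. The sums hide differences. miR-1, miR-182-5p and miR-183-5p were higher in every EV library. miR-133a-3p was lower (15.15, 28.8 and 31.95 CPM in whole cells, 6.53, 13.7 and 0 in EV). miR-206 was in EV replicate 3 only, and miR-96-5p had 0 counts in EV replicates 1 and 3. In the blood list miR-486-5p alone was at 164 to 1161 CPM in whole cells and 1197 to 1711 CPM in EV. The part of serum or other cells in the results below was not tested.

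Mature sequences were found in RefSeq (GRCh38.p14) for 88 of these miRNAs and not for the other 14. Only 12 had a count in all 3 EV libraries, and their sequences are shown because the comparison of levels between cells and EV rests on them. Capitals mark the seed.
miR-3615: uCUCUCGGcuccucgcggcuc
miR-3065-5p: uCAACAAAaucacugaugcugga
miR-3613-5p: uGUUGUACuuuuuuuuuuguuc
miR-7704: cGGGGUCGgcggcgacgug
miR-3129-5p: gCAGUAGUguagagauugguuu
miR-4421: aCCUGUCUguggaaaggagcua
miR-3187-3p: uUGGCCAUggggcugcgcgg
miR-4488: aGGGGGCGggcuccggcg
miR-6134: uGAGGUGGuaggauguaga
miR-4510: uGAGGGAGuaggauguaugguu
miR-4429: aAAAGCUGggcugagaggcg
miR-3178: gGGGCGCGgccggaucg

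A second set is shown because 8 were called lower in EV, as were 9.77% of all 430 miRNAs tested, and had no EV count at all.
miR-4521: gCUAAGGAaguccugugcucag
miR-6511b-3p: cCUCACCAccccuucugccugca
miR-6511a-3p: cCUCACCAucccuucugccugc
miR-3173-5p: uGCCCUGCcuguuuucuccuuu
miR-3129-3p: aAACUAAUcucuacacugcugc
miR-7974: aGGCUGUGaugcucuccugagccc
miR-6747-3p and miR-5001-3p completed the set.

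The late-numbered miRNAs were a small share of either fraction. Together they held 0.0881%, 0.181% and 0.214% of the counts of whole cell replicates 1 to 3, and 0.211%, 0.181% and 0.170% of those of EV replicates 1 to 3. The summed level was 1609 ± 652 CPM (SD, n = 3) in whole cells and 1870 ± 211 CPM (SD, n = 3) in EV, a difference smaller than the spread between whole cell libraries. The most abundant member, miR-3615, supplied 48.2% and 51.2% of the summed counts in whole cell replicates 2 and 3, and without it the summed level was 926 CPM in whole cells and 1603 CPM in EV. In whole cell replicate 1 the leading one was miR-3065-5p (17.2%), and miR-3615 had 33 of 349 counts. In EV it was miR-3182 in replicate 1 (26.9% of the summed counts), miR-3615 in replicate 2 (20.8%) and miR-3613-5p in replicate 3 (10.8%).

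A similar summed level was spread over fewer miRNAs in EV. There were 54, 94 and 84 with a count in whole cell replicates 1 to 3, and 45, 47 and 31 in EV replicates 1 to 3. The EV library with the most counts, replicate 3, held the fewest. When every library was thinned to 396025 counts, 54, 69 and 71 were counted in whole cells and 43, 44 and 30 in EV, so the order of the fractions was the same at equal depth. Every EV library stayed below every whole cell library, but with 3 libraries a group an exact permutation test of such an order cannot give a two-sided p below 0.1. The order was not particular to the late-numbered miRNAs. Of 477 lower-numbered ones (numbers below 3000, and let-7) with 20 or more counts, 412, 418 and 409 were counted in the thinned whole cell libraries. In the thinned EV libraries 358, 352 and 266 were, again with replicate 3 lowest.

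The sizes of the counts differed too. In whole cells 128 of 232 counts above 0 (55.2%) lay between 1 and 9, with a median of 7.5. In EV 13 of 123 (10.6%) did, with a median of 47. EV replicate 3 had 1 miRNA at 1 to 9 counts, 10 at 10 to 99 and 20 at 100 or more, against 28, 57 and 9 in whole cell replicate 2, which had a higher total. In EV replicates 2 and 3 nearly every late-numbered miRNA was thus either missing or present with 10 or more counts, and in replicate 1 9 of 45 lay below 10. The lower-numbered miRNAs showed the same scarcity of small counts, with 23, 13 and 16 of them at 1 to 9 counts in EV replicates 1 to 3 and 132, 43 and 94 in whole cell replicates 1 to 3. The counts are of reads, and no source used here names a step that collapses reads of 1 starting molecule.

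**Figure D1:**
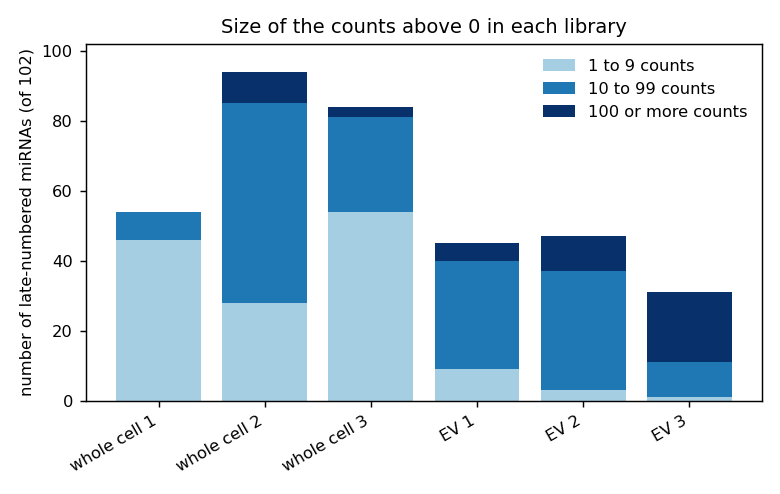
Number of late-numbered miRNAs (y axis) with 1 to 9, 10 to 99 or 100 or more counts in each library (x axis). The class of 1 to 9 counts holds 28 to 54 miRNAs in the whole cell libraries and 1 to 9 in the EV libraries.

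More members were shared by all whole cell libraries than by all EV libraries. In whole cells 48 were counted in all 3 libraries, 38 in 2, 12 in 1 and 4 in none. In EV 12 were counted in all 3 libraries, 23 in 2, 41 in 1 and 26 in none. The 41 with a single EV library were divided among replicate 1 (16 miRNAs), replicate 2 (15) and replicate 3 (10), and 39 of them had 10 or more counts there. Of the 23 counted in 2 EV libraries, 14 were counted in replicates 1 and 2, 6 in replicates 2 and 3 and 3 in replicates 1 and 3. Of the 477 lower-numbered miRNAs, 402 were counted in all 3 whole cell libraries and 244 in all 3 EV libraries.

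**Figure D2:**
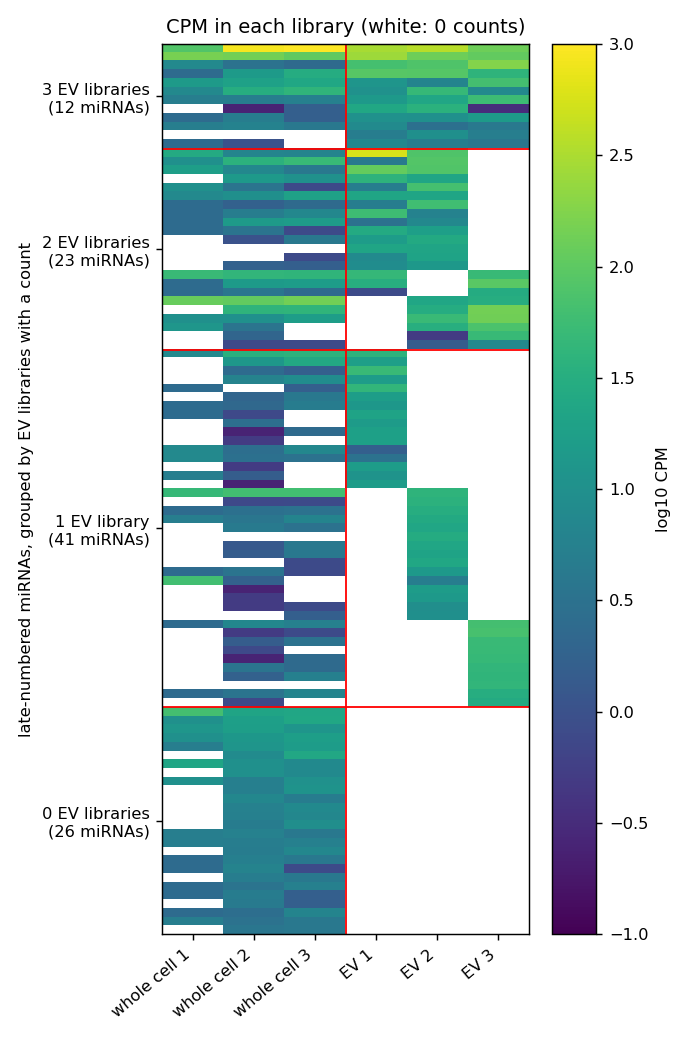
Level of each late-numbered miRNA (rows) in each library (columns), as log10 CPM, with white for 0 counts; red lines separate the fractions and the groups by number of EV libraries with a count. The 41 miRNAs in 1 EV library form 3 separate blocks of 16, 15 and 10, while whole cell replicates 2 and 3 are filled in most of the same rows.

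Examples make the pattern plain. miR-6884-3p, from an exon of the Mediator gene MED24, had 0, 2 and 1 counts in whole cells and 0, 0 and 214 in EV. miR-3609 had 0, 10 and 2 counts in whole cells and 64, 0 and 0 in EV. miR-3605-3p, from an intron of the Polycomb gene PHC2, had 19, 242 and 78 counts in whole cells and 0, 82 and 0 in EV. The last was counted in every whole cell library and in 1 EV library.

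For the 68 miRNAs with at least 20 counts over the 3 EV libraries, the library with the highest CPM held a median of 99.5% of the summed CPM, and in 34 of them it held everything. The same measure in whole cells was 51.5% over 56 miRNAs, with none held in 1 library only. Lower-numbered miRNAs were less concentrated in EV, with a median of 56.8% over 403 and 73 held in 1 library only. This contrast was not matched for total count, which was lower in the late-numbered miRNAs.

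The late-numbered miRNAs had lower totals, so they were set beside the 477 lower-numbered ones (numbers below 3000, and let-7) with 20 or more counts within bands of total count. At 20 to under 50 counts, 46.2% of 39 late-numbered and 46.9% of 49 lower-numbered miRNAs had no EV count. At 50 to under 100 counts the shares were 26.1% of 23 and 25.9% of 54. At 100 to under 500 counts they were 6.25% of 32 and 7.26% of 124, and 5 of the 32 and 26 of the 124 were counted in all 3 EV libraries. At 500 or more the EV values were apart, with 4 of 8 late-numbered and 215 of 250 lower-numbered miRNAs in all 3 EV libraries, and in that band the lower-numbered ones reach far higher totals. Whole cells differed in lower bands too. Of late-numbered and lower-numbered miRNAs, 34.8% and 68.5% were counted in all 3 whole cell libraries at 50 to under 100 counts, and 62.5% and 79.8% at 100 to under 500. The share counted in a single EV library was 43.6% of late-numbered and 42.9% of lower-numbered miRNAs at 20 to under 50 counts. In the same order it was 52.2% and 63.0% at 50 to under 100 counts. It was 37.5% and 25.8% at 100 to under 500, and 0% and 2.8% at 500 or more. These shares are descriptions of miRNAs within the same libraries and were not tested.

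**Figure D3:**
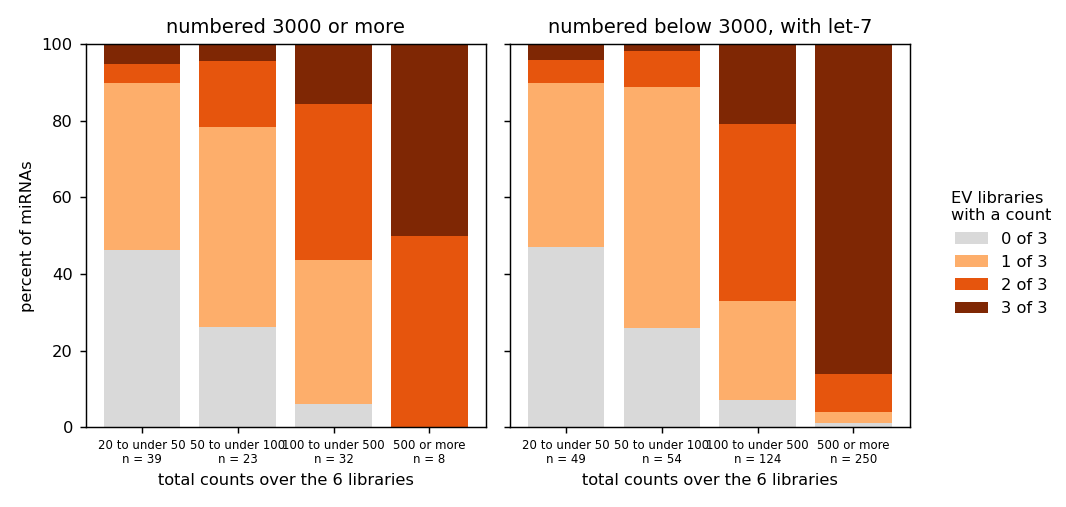
Percent of miRNAs (y axis) counted in 0, 1, 2 or 3 EV libraries, by total count over the 6 libraries (x axis), for miRNAs numbered 3000 or more (left) and below 3000 with let-7 (right). The share with no EV count is 46.2% and 46.9% in the lowest band and falls in both panels as the total rises.

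By number, the band starting at 3000 was the best represented, with 44 of 279 rows (15.8%) reaching 20 counts and 6 counted in all EV libraries. The bands starting at 4000, 5000 and 6000 and the numbers of 7000 and over gave 27 of 503, 5 of 116, 22 of 424 and 4 of 108 rows, with 4, 0, 1 and 1 counted in all EV libraries. Among numbers below 1000, 410 of 914 rows (44.9%) reached the same total.

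The comparison of fractions across all miRNAs was made with edgeR on the 430 that passed the filter, of which 36 were late-numbered. An adjusted p below 0.05 and a log2 fold change of at least 2.5 in size called 11.9% of the 430 higher and 9.77% lower in EV. Of the 36, 1 was called higher and 8 lower. All 8 had no count in any EV library, so they passed the filter through whole cells alone and had to differ, and their number supports nothing about the late-numbered miRNAs. None of the 28 tested miRNAs with an EV count was called lower. Every late-numbered member was tested at a filter of 20 total counts. There 1 was called higher and 14 lower, against 6.47% and 10.1% of the 587 then tested. These 14 also had no EV count, so they reached the total through whole cells alone. Their number likewise supports nothing about the late-numbered miRNAs. The median log2 fold change was 0.04 over the 36 and -0.23 over the 430, the same with miRNAs missing from a whole group set to their bound. It was not stable, at 1.22 over all members and -0.14 over the 587 with the filter of 20 total counts, and at -0.08 with DESeq2 and -0.12 with RLE factors over the 36. Leaving out 1 library moved it between -0.54 (without EV replicate 3) and 1.30 (without whole cell replicate 2), so no direction is read from it.

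Over all late-numbered miRNAs, the 3 EV levels were all above the 3 whole cell levels for 6 miRNAs and all below them for 18. Of the 587 miRNAs with a total of 20 or more, 15.3% lay above and 24.4% below. A count of 0 was taken as 0 CPM here, although it allows up to 3 counts, so orders that rest on it are less sure. miR-3178, placed above, had no whole cell count and 4.90 to 9.81 CPM in EV. The floor of whole cell replicate 1 was 7.58 CPM. Among the 18 were 15 with no EV count, and the other 3 were miR-3200-3p, miR-3605-3p and miR-6500-3p.

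The 12 miRNAs counted in every EV library are the ones whose level could be compared between the fractions without a missing library. Asking for a count in every EV library favours miRNAs with more EV counts, so the balance of directions among them is a description.

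miR-3613-5p stood out among them. It lies in an intron of DLEU2, the long non-coding RNA that also hosts miR-15a and miR-16-1, at chr13:49996465-49996486, minus strand, in GRCh38. Its counts were 3, 13 and 3 in whole cells and 81, 159 and 577 in EV, or 7.58, 3.26 and 2.40 CPM against a range of 66.1 to 184 CPM. The EV libraries all exceeded the highest whole cell library, and the mean CPM was 24.8-fold higher. It was the late-numbered miRNA called higher in EV (log2 fold change 4.79 ± 1.08 SE, adjusted p = 0.0144, edgeR quasi-likelihood test over 430 miRNAs). The call was lost without whole cell replicate 2 or 3, at log2 fold changes of 4.50 and 4.33. Its opposite arm, miR-3613-3p, had 2, 13 and 0 counts in whole cells and none in EV. The miR-3613-5p sequence is A and U rich, with 22.7% G and C.

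miR-3615 was the most abundant late-numbered miRNA of both fractions. It lies in an untranslated exon of SLC9A3R1, which encodes a scaffold protein of the plasma membrane, at chr17:74748663-74748683, plus strand. Its level was 83.3, 869 and 1097 CPM in whole cells and 295, 377 and 130 CPM in EV. The fractions overlapped because whole cell replicate 1 was low, and the log2 fold change of -1.51 ± 0.91 SE was not called (edgeR, adjusted p = 0.297).

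miR-3065-5p, at chr17:81125886-81125908, plus strand, was even across both fractions. Its counts were 60, 565 and 130 in whole cells and 323, 266 and 342 in EV, or 152, 142 and 104 CPM against 264, 130 and 109 CPM. The fractions overlapped and the log2 fold change of 0.40 ± 0.63 SE was not called (edgeR, adjusted p = 0.706), with a sign that turned without EV replicate 1 (-0.23).

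For 3 more of the 12 that were tested, the lowest EV library exceeded the highest whole cell one without a call. miR-7704, which overlaps a coding exon of the homeobox gene HOXD1 at chr2:176188843-176188861, plus strand, was at 2.52, 15.0 and 30.3 CPM in whole cells and 90.6, 89.3 and 39.9 CPM in EV (log2 fold change 2.05, edgeR adjusted p = 0.270). miR-3129-5p, from an intron of the collagen gene COL5A2 at chr2:189133082-189133103, minus strand, was at 5.05, 5.01 and 5.59 CPM in whole cells and 14.7, 23.1 and 54.6 CPM in EV (log2 fold change 2.56, edgeR adjusted p = 0.138). miR-6134 was at 2.52, 5.01 and 1.60 CPM in whole cells and 10.6, 10.3 and 15.3 CPM in EV (log2 fold change 1.92, edgeR adjusted p = 0.182). These rest on few whole cell counts, 29 for miR-3129-5p and 23 for miR-6134 over 3 libraries. The called miR-3613-5p rests on fewer still, with 19.

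Both fractions overlapped for miR-4421, miR-3187-3p and miR-4510. miR-4421 had 6, 79 and 30 counts in whole cells and 15, 13 and 200 in EV. miR-3187-3p, on the strand opposite a coding exon of PLPPR3, had 3, 126 and 51 counts in whole cells and 13, 96 and 24 in EV. miR-4510 had 2, 24 and 5 counts in whole cells and 10, 6 and 13 in EV, and its mean level was 5.02 and 5.08 CPM.

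The remaining 3 of the 12 did not pass the filter of 5 CPM in 3 libraries. miR-4488 had 0, 1 and 2 counts in whole cells and 30, 73 and 1 in EV. miR-4429 had 1, 4 and 0 counts in whole cells and 9, 10 and 12 in EV, low but even. miR-3178 had no whole cell count and 6, 20 and 16 in EV.

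**Figure D4:**
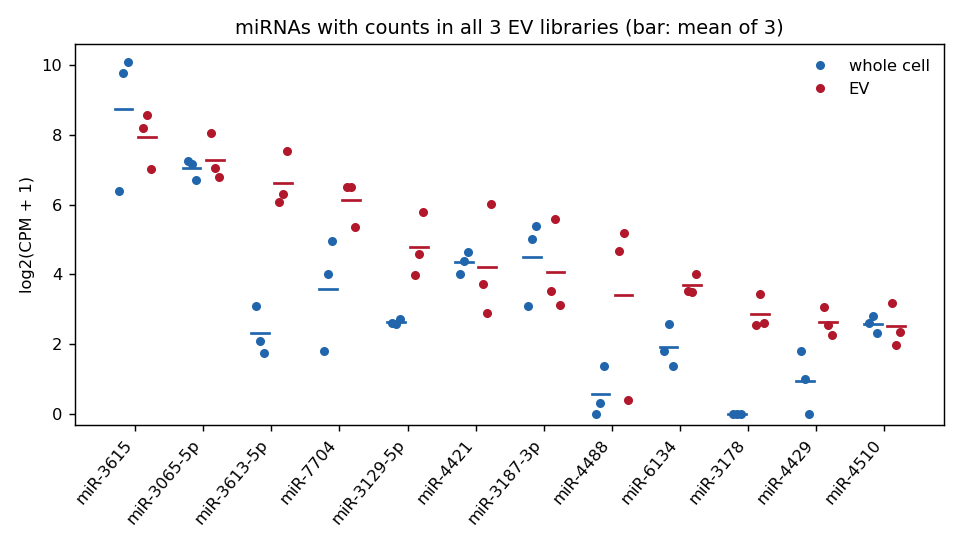
Level of the 12 miRNAs with a count in all 3 EV libraries, as log2(CPM + 1) on the y axis; points are libraries of whole cells (blue) and EV (red) and bars the mean of 3. The EV points lie above all whole cell points for miR-3613-5p, miR-7704, miR-3129-5p, miR-6134, miR-3178 and miR-4429, and the fractions overlap for the other 6.

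miR-3200-3p was the third most abundant late-numbered miRNA of whole cells. It comes from an intron of OSBP2, which encodes an oxysterol-binding protein. Its level was 116, 108 and 143 CPM in whole cells and 0, 23.1 and 31.6 CPM in EV, a mean of 0.149 of the whole cell level. It was not called by edgeR (log2 fold change -2.78 ± 1.46 SE, adjusted p = 0.225), whereas DESeq2 called it lower in EV.

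The 8 called lower had small counts, and without EV counts they had to reach 5 CPM in all 3 whole cell libraries to be tested. miR-4521 had 25, 87 and 29 counts in whole cells and, against a floor of 3 counts per EV library, was at least 22.2-fold lower in EV (edgeR adjusted p = 0.0121). miR-6511b-3p, from an intron of the polycystin gene PKD1 and from a PKD1 pseudogene, had 4, 73 and 30 counts and was at least 10.7-fold lower. miR-3173-5p lies in an intron of DICER1, the enzyme that cuts miRNA precursors, and its 5, 69 and 15 counts gave at least 8.59-fold. The other 5 were miR-5001-3p (9, 40 and 10 counts), miR-6511a-3p (4, 52 and 22), miR-6747-3p (2, 48 and 20), miR-3129-3p (4, 21 and 13) and miR-7974 (2, 20 and 7), with bounds from 3.21-fold to 8.35-fold. Their edgeR adjusted p ran from 0.00872 for miR-7974 to 0.0121. DESeq2 called neither miR-7974 nor miR-3129-3p lower. The bounds compare means and allow for counting error in EV only, not for the spread between libraries. Leaving out any whole cell library removed all 8 from the test, since they then passed 5 CPM in only 2 libraries.

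**Figure D5:**
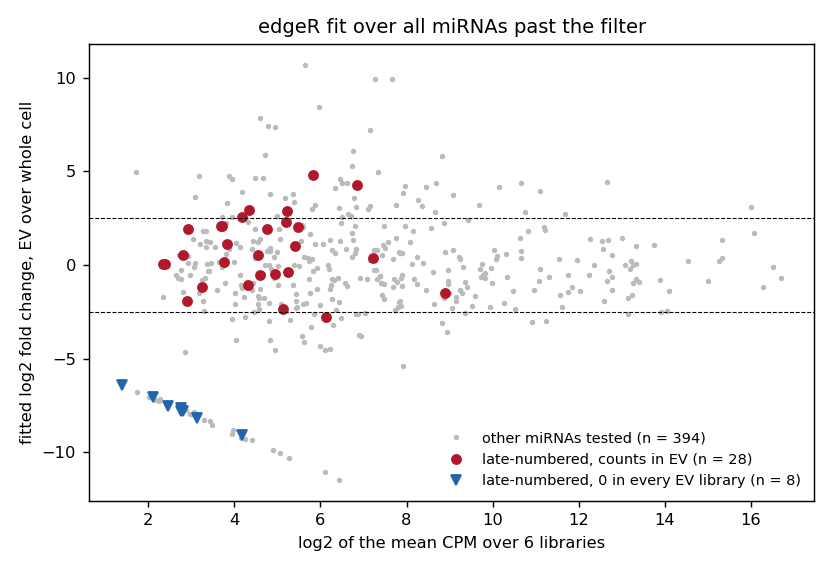
Fitted log2 fold change of EV over whole cells (y axis) against the log2 mean CPM over the 6 libraries (x axis) for the 430 miRNAs tested; dashed lines mark the fold limit of 2.5. The 28 late-numbered miRNAs with EV counts lie among the other miRNAs, and the 8 with none lie on the lower edge, where the fitted value depends on the prior count.

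In all, 26 members had no EV count, with 20 to 141 counts in whole cells, and bounds, for counting error only, of at least 1.25-fold to 22.2-fold lower in EV. The number rose to 42 without EV replicate 1, 41 without replicate 2 and 36 without replicate 3. The 5 with the most whole cell counts were miR-4521, miR-6511b-3p, miR-3173-5p, miR-6511a-3p and miR-6747-3p.

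In the other direction, 4 had no whole cell count. miR-3607-5p had 134 counts in EV replicate 3 and none elsewhere. miR-4536-5p had 58 counts in EV replicate 2 and none elsewhere. miR-3128, from an intron of the oxidative stress regulator gene NFE2L2, had 28, 44 and 0 counts in EV. The mean EV levels of these and miR-3178 were 1.85 to 4.14 times that of a floor of 3 counts per whole cell library, and none passed the filter for the test. Only miR-3178 was counted in all 3 EV libraries. The others were at 0 in at least 1 EV library, so no lower limit on their difference is read from the means.

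Several abundant EV miRNAs were uneven. miR-3182, from an intron of the cadherin gene CDH13, had the second highest mean in EV, and its level was 566, 80.0 and 0 CPM there against 27.8, 6.51 and 6.39 CPM in whole cells. It was not called (edgeR log2 fold change 4.26 ± 2.13 SE, adjusted p = 0.205), and without EV replicate 3 both it and miR-3144-3p were called higher. miR-7704, miR-3065-5p and miR-3613-5p completed the leading 5 of EV with miR-3615 and miR-3182. In whole cells the leading 5 were miR-3615, miR-3065-5p, miR-3200-3p, miR-3605-3p at 57.0 CPM and miR-3065-3p at 45.0 CPM.

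The other tested miRNAs with EV counts were absent from at least 1 EV library and were not called. miR-7706, in an untranslated exon of AKAP13, had 0, 158 and 52 counts in whole cells and 0, 62 and 445 in EV. miR-4742-3p had 5, 14 and 0 and then 0, 66 and 230, and miR-3125 had 1, 60 and 20 and then 40, 0 and 300. miR-3138 was at 1, 28 and 7 counts in the cells and at 200 in EV replicate 3 only, while miR-4443 had 3, 140 and 48 and then 47 in EV replicate 1 only. The whole cell counts of miR-7706, miR-3125, miR-3138 and miR-4443 were in the order of the library totals, and those of miR-4742-3p were not. The rest, miR-3928-3p, miR-4435, miR-3127-5p, miR-3940-3p, miR-3180-3p, miR-4286, miR-6716-3p and miR-7845-5p, had 19 to 176 EV counts in all, and their edgeR adjusted p ran from 0.432 to 0.997.

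Both arms of 10 hairpins were among the members, and the arms of several parted between the fractions. miR-3129-5p was in all EV libraries while miR-3129-3p was in none. miR-3144-3p had 137, 168 and 0 counts in EV and miR-3144-5p had none there, although in whole cells the 5p arm had 0, 34 and 31 counts and the 3p arm 7, 28 and 5. miR-5001-5p had 0, 3 and 0 counts in whole cells and 0, 0 and 87 in EV, and miR-5001-3p was in whole cells only. miR-3605 behaved otherwise, with both arms in EV replicate 2 only, at 82 counts for 3p and 64 for 5p. Over all members 14 of 38 3p arms, 5 of 27 5p arms and 7 of 37 miRNAs with no arm in their name had no EV count.

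Some late-numbered miRNAs differ by a few bases from another miRNA with more counts, and the sequences are set side by side because they are nearly the same. Capitals here mark the bases that differ.
miR-4510: ugaggGaguaggAuguaugguu
let-7c-5p: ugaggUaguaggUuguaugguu
miR-6134: ugagguGguaggAuguaGa
let-7a-5p: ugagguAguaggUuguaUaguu
miR-4429: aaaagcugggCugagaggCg
miR-320d: aaaagcugggUugagaggA
miR-3591-5p: uUUagugugaUaauggCguuuga
miR-122-5p: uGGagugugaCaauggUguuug
miR-6511a-3p: ccucaccaUcccuucugccugc
miR-6511b-3p: ccucaccaCcccuucugccugca

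Counted from 1 at the 5′ end of the second name of each pair, the changes are U6G and U13A for miR-4510, A7G, U13A and U18G for miR-6134, U11C and A19C for miR-4429, G2U, G3U, C11U and U17C for miR-3591-5p, and C9U for miR-6511a-3p. Together with miR-3180, whose 19 bases are the first 19 of miR-3180-3p, these 6 of 88 miRNAs with a sequence (6.82%) had a relative with more counts at no more than 4 differences over at least 18 bases. Among lower-numbered miRNAs the share was 95 of 432 in the same comparison. The let-7-like miR-4510 and miR-6134, and miR-4429, are among the 12 counted in every EV library. let-7c-5p had 10851 to 74121 counts in whole cells and 28668 to 68980 in EV, and miR-4510 had 0.278 and 0.201 counts per 1000 of them. miR-6134 had 0.0315 counts per 1000 of let-7a-5p in whole cells and 0.170 in EV, so its ratio to let-7a-5p was not the same in the fractions. miR-4429 had 8.04 counts per 1000 of miR-320d in whole cells and 79.5 in EV. Whether reads of the relatives were counted for these miRNAs was not tested.

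Shared seeds were few. The 88 sequences held 85 seeds, and the pairs sharing one were miR-6511a-3p with miR-6511b-3p, miR-3180 with miR-3180-3p, and miR-4421 with miR-5699-3p. Seeds were shared by 4 members with a lower-numbered miRNA of 20 or more counts. miR-4458 has the let-7 seed, miR-4429 that of miR-320b, miR-320c and miR-320d, miR-3129-5p that of miR-199a-3p and miR-199b-3p, and miR-3679-5p that of miR-1185-5p. miR-4458 had 1, 21 and 5 counts in whole cells and none in EV. Copies at several positions of the genome were listed for 9 members, and for these, miR-6511a-3p and miR-3180 included, the position of origin cannot be told from the counts.

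For 9 late-numbered miRNAs the mature position in the tables lies over that of another mature miRNA, always on the opposite strand. miR-3065 is read from the strand opposite miR-338, a brain-enriched miRNA encoded in an intron of AATK, and its 5p arm is the reverse complement of miR-338-3p over 22 bases.
miR-3065-5p: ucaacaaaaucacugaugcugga
miR-338-3p: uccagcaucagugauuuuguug
miR-3065-5p had 755 counts in whole cells and 931 in EV, and miR-3065-3p had 243 and 209, while miR-338-3p and miR-338-5p were listed at 0 counts in all 6 libraries. Counting used strand, per the file headers.

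miR-3591 lies opposite miR-122, the liver miRNA found in blood serum. miR-3591-5p had 4, 40 and 21 counts in whole cells and 0, 104 and 419 in EV, and miR-122-5p had 3, 33 and 14 and then 245, 186 and 529. miR-122-3p, whose position miR-3591-5p shares, had 0 counts. In whole cells the 2 had similar counts, and in EV replicate 1 only miR-122-5p was present. In all, 8 of the 9 partners on the opposite strand had 0 counts. miR-3158-3p, miR-3688-3p and miR-4536-5p overlapped the opposite arm of their own number, miR-3150a-3p that of miR-3150b-5p and miR-4659a-3p that of miR-4659b-5p.

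In sequence, the late-numbered miRNAs were richer in G and C than the lower-numbered ones. The median was 56.5% over 88 (range 22.7% to 91.3%) against 47.8% over 432, and 52.2% over all 2262 rows with a sequence. A run of 4 G (GGGG, on the miRNA strand) was in 16 of the 88 (18.2%), in 6.71% of the lower-numbered ones and in 11.8% of all rows. It was in 4 of the 12 miRNAs counted in every EV library and in 3 of the 20 with a sequence and no EV count. Median G and C content was 63.1% for those with no EV count and 55.0% for those in every EV library.

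Against GENCODE 29, 42 of the 88 lay in an intron of a gene on the same strand, 17 in an exon, 15 on the strand opposite a gene only and 14 between annotated genes. Exonic ones included miR-3615, miR-7704, miR-7706, miR-4435 in the long non-coding RNA CYTOR, and miR-6516-3p, which also lies within the small Cajal body RNA SCARNA16.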

How the data were processed

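The authors sequenced small RNA of 3 whole cell and 3 EV samples and deposited, per the file headers, raw counts of reads per mature miRNA from featureCounts 1.5.0-p1 with strand used, on miRBase annotation. The headers name a Bowtie alignment and no option for reads with several positions; the genome build is not given in the sources used here. The 102 members and the lists were chosen with earlier results of these data known. CPM used each table's column total. miRNAs at 5 CPM or more in at least 3 libraries were tested between EV and whole cells with the edgeR 4.0.16 quasi-likelihood test (R 4.3.3) on TMM-scaled counts, with Benjamini-Hochberg adjustment over all 430; DESeq2 1.42.0 was an alternative. Both were tested on simulated data. Named miRNAs were all those past the filter, the leading 5 of each fraction, those in all EV libraries or in no whole cell library, the 5 most counted without EV counts, those at the limit of 20, and those overlapping another miRNA or sharing a seed. The examples miR-6884-3p, miR-3609, miR-3605-5p, miR-3144-5p and miR-5001-5p were chosen after their values were seen, as were the limits for relatives and the GGGG count. Sequences and their positions came from RefSeq GRCh38.p14, matched for 2262 of 2576 names, and gene context from GENCODE 29. Alternatives covered tool, scaling, filter, limits, depth, detection rule and each library left out in turn.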

Additional observations from a re-analysis of the deposited data

How the results depend on the processing

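With no filter beyond 1 count, 4 late-numbered miRNAs were called higher and 26 lower in EV, of 50 higher and 157 lower among 1188 tested, and those 26 were the members with no EV count. With a filter at a total of 20 counts 14 were called lower and 1 higher, of 59 lower and 38 higher among 587 tested. Those 14 had no EV count either. At an adjusted p limit of 0.01, 0 were called higher and 1 lower by edgeR, against 10 of 36 at an unadjusted p under 0.05. Those 10 include the 8 with no EV count, which had to differ. The share of all 430 miRNAs at these limits was not counted, so nothing is read from these numbers. Leaving out each library in turn gave 0 to 3 called higher and 0 to 9 lower, of 17 to 38 higher and 5 to 67 lower among 378 to 408 tested. DESeq2, RLE factors and library totals left both counts within 1.5 times, of 43 to 47 higher and 42 to 48 lower among 430 tested. The members called lower were not all the same. With DESeq2 miR-7974 and miR-3129-3p were no longer called and miR-3200-3p was. Removing the fold limit left 1 called higher and 8 lower, with the share of all 430 not counted. A count in every library of the group was found for 12 miRNAs in EV and 48 in whole cells. With a total limit of 50, 60 were counted in whole cells and 8 had no EV count, and with a limit of 10, 66 had none. Leaving out each EV library gave 36 to 42 with no EV count. Without miR-3615 the summed level was 926 CPM in whole cells and 1603 CPM in EV. The fold change of miR-3065-5p turned to -0.23 without EV replicate 1, and the other libraries left out gave up to 0.52. The causes were not tested beyond the filters and samples named. Whole cell replicate 1 had the smallest total. Thinned to that total, whole cell replicates 2 and 3 held 69 and 71 of the late-numbered miRNAs, against 54 in replicate 1. No paired analysis was run, since the labels give no number shared between the fractions, and EV passage 23 lies as near to whole cell passage 24 as to 22.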

Other observations

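Of the 414 late-numbered miRNAs with 1 to 19 counts, 395 (95.4%) had no EV count, while 345 had a count in whole cell replicate 2, the deepest library. Only 9, 7 and 4 of them were counted in EV replicates 1 to 3, and 105 rested on a single count.

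At the limit of 20 counts, miR-6734-5p, miR-6734-3p, miR-6720-3p and miR-4659a-3p were just inside, all without an EV count. miR-3192-5p, miR-3909, miR-4440 and miR-4677-5p were just outside with 19 counts, and of these miR-4440 had 9 in EV replicate 2.

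Of 5 numbers listed here as known to match other non-coding RNA, miR-3648 reached the limit with 1, 7 and 3 counts in whole cells and 6, 119 and 0 in EV. The list is not complete, since miR-6516-3p within SCARNA16 is not on it. miR-4485, miR-4454, miR-4461 and miR-7975 had 4, 5, 2 and 0 counts in all.

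miR-3168 had 24, 7 and 0 counts in whole cell replicates 1 to 3, highest in the library with the smallest total, and 0, 10 and 0 in EV.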
